A study of Homo sapiens with 6 samples.

Results

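Binding of PLAG1-S and USF2 was described at 40 genes of the endoplasmic reticulum (ER) stress response, of ER protein folding and of tail-anchored protein insertion, among 20033 protein-coding genes. The genes form a list chosen by role, with earlier results of these data known, and the shares given below describe that list only. A peak was assigned to a gene when it lay inside the gene body or within 3 kb of it (RefSeq annotation of GRCh38.p14). The study asked by ChIP-seq, in which DNA held by a protein is immunoprecipitated and sequenced, where PLAG1 and USF2 bind chromatin. Clones #4 and #5 of K562, a human chronic myelogenous leukemia line, both co-overexpressed FLAG-PLAG1-S and USF2. PLAG1-S, the short form of the zinc finger factor PLAG1, was pulled down with an anti-FLAG antibody and USF2 with an anti-USF2 antibody, so that each factor had 2 libraries, 1 from each clone. Each line is a single clone, all libraries carry both transgenes, and none came from cells without them, so that binding at the level of the endogenous factors was not measured. The input libraries of the clones were merged and served as the background for all 4 peak lists.

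The ER folds membrane and secreted proteins with the help of chaperones such as BiP (HSPA5), lectin chaperones and disulfide isomerases. When unfolded protein accumulates, the sensors IRE1 (ERN1), PERK (EIF2AK3) and ATF6 start the unfolded protein response, in which spliced XBP1, cleaved ATF6 and translationally induced ATF4 switch on chaperones, stress genes and ER-associated degradation (ERAD). The GET pathway delivers tail-anchored proteins, which carry their only membrane segment at the C terminus, to the ER membrane. USF2 is a basic helix-loop-helix leucine zipper factor that binds the E-box CACGTG, and PLAG1 binds a G-rich bipartite site.

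The E-box was found in the promoter sequence of 7 of the 36 genes that matched a RefSeq promoter entry, each running from 250 bases before to 50 bases after an annotated start (GRCh38.p14). GET4, DERL1, PDIA3 and DERL3 had no entry. These sites are shown because 5 of the 7 genes carried USF2 in both clones. Each line runs 5′ to 3′ on the strand of the gene, and capitals mark the E-box, which reads the same on both strands.
CANX, chr5:179698985-179699014, plus strand: ttggttctgcggCACGTGacggtcgggccg
DNAJB9 upstream E-box, chr7:108569789-108569818, plus strand: acaacagttttcCACGTGcgcgtagggcgc
DNAJB9 downstream E-box, chr7:108569813-108569842, plus strand: gggcgccgggatCACGTGgggaggcagaag
ATF4, chr22:39520465-39520494, plus strand: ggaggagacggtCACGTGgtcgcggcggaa
HERPUD1, chr16:56931971-56932000, plus strand: tcagcccgtgccCACGTGctcggtccgccc
GET3, chr19:12737475-12737504, plus strand: gctccgctggatCACGTGagccagttccaa
ATF6B, chr6:32128331-32128360, minus strand: catctgttgattCACGTGctcagcacccag
HSP90B1, chr12:103930160-103930179, plus strand: ccCACGTGtgaggggcccgc

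The last pair, ATF6B and HSP90B1, held an E-box but did not carry USF2 in both clones. ATF6B had no USF2 peak, and HSP90B1 had USF2 in clone 4 alone. The stretch upstream of the DNAJB9 start is shown at greater length because the summits of all 4 libraries fell on it, within 3 bp of each other with the PLAG1-S summits 4.5 bp from the middle of the nearer E-box. The stretch around the PLAG1-S summits of EDEM1 is shown beside it as a promoter that PLAG1-S occupied in both clones with no E-box and no USF2 peak. Capitals again mark the E-box.
DNAJB9, chr7:108569772-108569873, plus strand: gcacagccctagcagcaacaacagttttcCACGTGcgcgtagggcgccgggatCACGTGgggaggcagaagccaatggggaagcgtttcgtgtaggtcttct
EDEM1, chr3:5187563-5187683, plus strand: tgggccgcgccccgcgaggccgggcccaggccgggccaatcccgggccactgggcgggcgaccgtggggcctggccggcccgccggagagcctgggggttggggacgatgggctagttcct

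The peak lists of the series held 37574 and 29889 PLAG1-S peaks in clones 4 and 5, and 9338 and 4369 USF2 peaks. The PLAG1-S lists ended at q-values of 0.00990 and 0.00974 and the USF2 lists at 0.0494 and 0.0477, so that the USF2 lists admitted weaker peaks. Of these peaks, 82 and 68 PLAG1-S peaks and 32 and 21 USF2 peaks belonged to the 40 genes. A peak overlapping a peak of the other clone by at least 1 bp is called reproducible. At the 40 genes 65.9% and 82.4% of the PLAG1-S peaks and 46.9% and 81.0% of the USF2 peaks of clones 4 and 5 overlapped the other clone, against 57.1%, 72.6%, 25.8% and 55.7% of all peaks in these lists. The median fragment number over a summit was 26.5, 26, 22.5 and 24 in the lists in that order. Many of the weaker peaks therefore rested on few fragments, with a minimum of 12 to 14.

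PLAG1-S occupied most of the 40 genes and USF2 a minority of them. A reproducible PLAG1-S peak was present at 32 of 40 genes (80.0%), against 52.0% of all protein-coding genes. A reproducible USF2 peak was present at 13 (32.5%), against 10.3% of all. At 11 genes (27.5%) a reproducible PLAG1-S peak lay within 100 bp of a reproducible USF2 peak, which is called co-bound here, against 9.98% of all. Without clone 5, that is with every clone 4 peak counted, USF2 was present at 20 genes and 19 were co-bound, and without clone 4 the counts were 15 and 13. Within 1 kb of a start the counts were 31, 10 and 9 genes, against 40.5%, 7.32% and 7.24% of all protein-coding genes. The 40 genes were shorter than the rest, with a median length of 16182 bp against 24130 bp. The list was chosen with earlier results of these data known, so that its shares are not those of a list picked blind. No test was made of these shares, because genes are not replicates and 2 libraries against 2 cannot give an exact permutation p below 0.33.

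The strongest peak of a gene is used below to describe its level, as the fold enrichment at the summit over the local background, both taken from the authors' peak calls. Among genes with a peak, the median of the strongest fold was 7.78 and 6.35 for PLAG1-S at the 40 genes in clones 4 and 5, against 7.11 and 6.42 over all protein-coding genes with a peak. For USF2 the medians were 5.49 and 5.68, against 4.80 and 5.25. The median folds at the 40 genes were thus close to those of all genes. The levels spread widely, with single peaks in clone 4 between 2.58 and 60.3 for PLAG1-S and between 2.33 and 56.2 for USF2, and the plot of the strongest fold by gene and library shows where each gene lay.

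**Figure D1:**
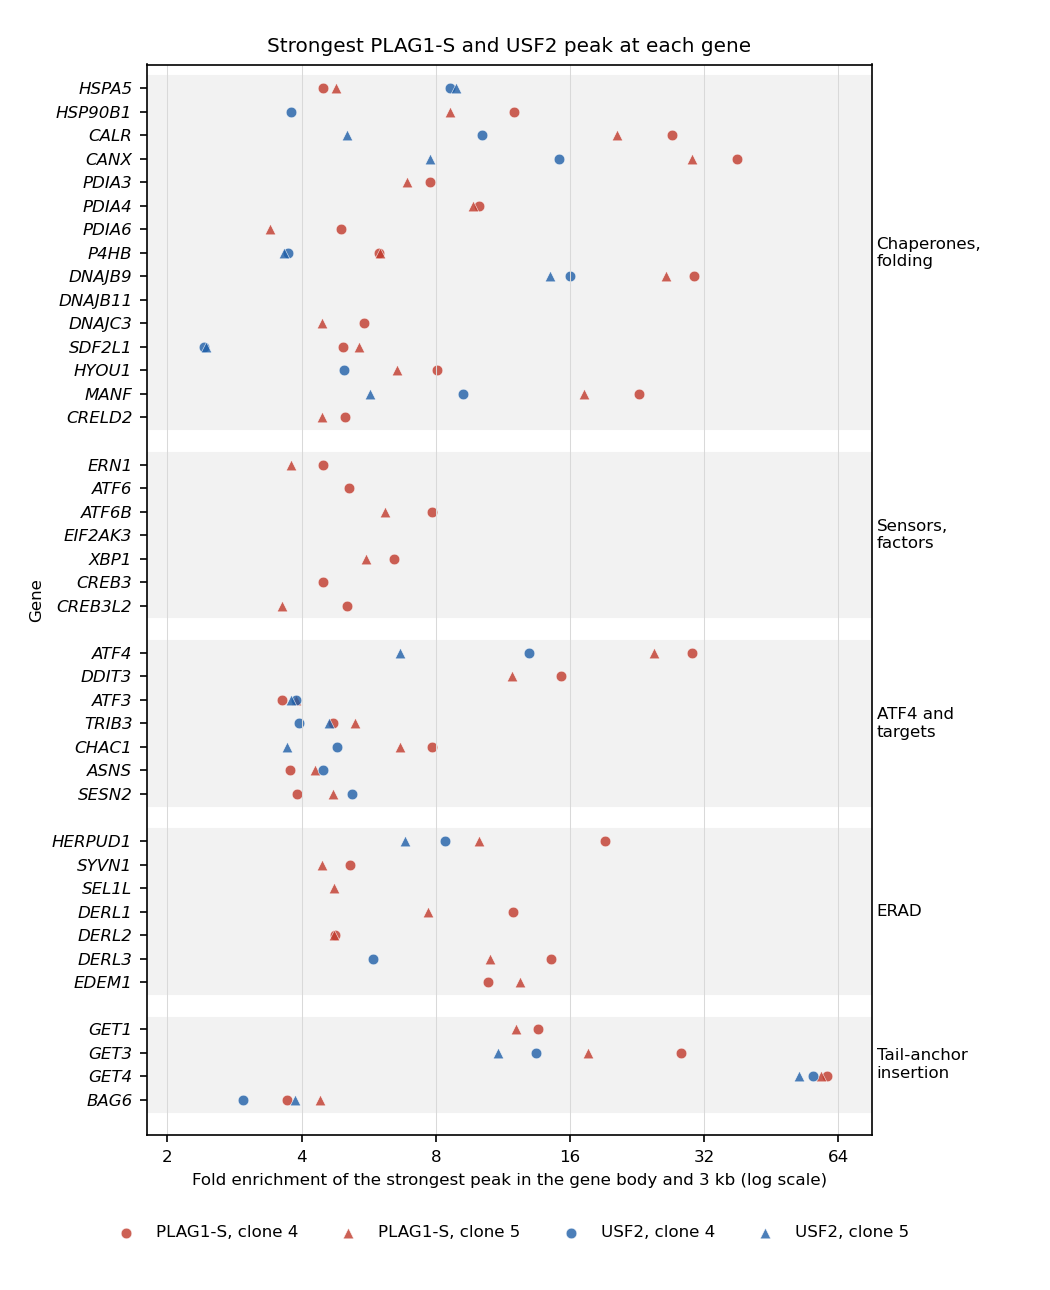
Fold enrichment of the strongest peak in the gene body and 3 kb around it (log2-spaced axis) for each gene, grouped by role, with PLAG1-S in red, USF2 in blue, clone 4 as circles and clone 5 as triangles; a missing symbol means no peak in that list. GET4 stands apart at 52.2 to 60.3 in all 4 libraries, and none of the 7 sensors and their factors has a USF2 symbol.

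The roles differed in their counts. Co-bound peaks were present at 6 of 15 chaperones and folding enzymes, 0 of 7 sensors and their transcription factors, 2 of 7 genes of ATF4 and its targets, 1 of 7 ERAD genes and 2 of 4 genes of tail-anchor insertion. Reproducible PLAG1-S peaks were present at 14, 3, 6, 6 and 3 genes of these roles, and reproducible USF2 peaks at 6, 0, 4, 1 and 2. Over all protein-coding genes the shares were 9.98% for co-bound peaks, 52.0% for PLAG1-S and 10.3% for USF2. A co-bound count of 0 of 7 lies near the share of all genes. Within 1 kb of a start, 4 of the 15 chaperones and folding enzymes were co-bound, and the co-bound counts of the other roles were unchanged. With 4 to 15 genes in a role, a change of 1 gene moves a share by several percentage points or more, and no difference between roles was tested.

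**Figure D2:**
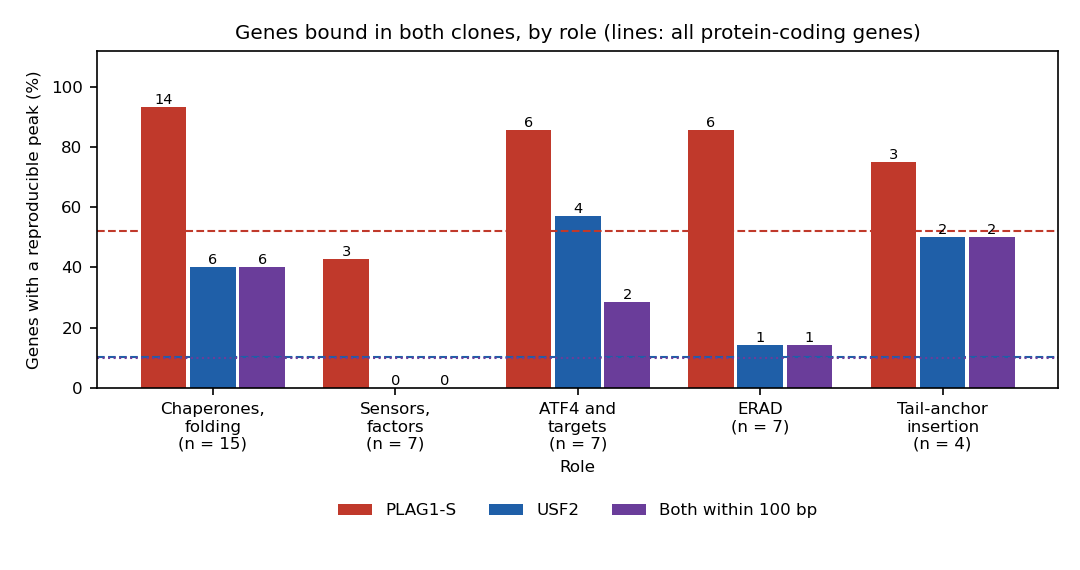
Percent of the genes of each role with a reproducible PLAG1-S peak (red), a reproducible USF2 peak (blue) and both within 100 bp (purple), with the number of genes above each bar and dashed lines at 52.0%, 10.3% and 9.98%, the shares of all protein-coding genes. The sensors have 3 genes with PLAG1-S and 0 with USF2, while the chaperones have 14 and 6 of 15.

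Among the chaperones, the lectin chaperone calnexin (CANX) and the BiP co-chaperone DNAJB9 (ERdj4) carried the strongest PLAG1-S peaks in both clones. At CANX the PLAG1-S fold was 37.8 in clone 4 and 30.04 in clone 5, and the USF2 fold was 15.2 and 7.76. The PLAG1-S and USF2 summits lay 27 to 62 bp after a CANX start, and the clone 4 summits were 3 bp apart (PLAG1-S peak chr5:179698554-179699530). At DNAJB9 the PLAG1-S fold was 30.4 and 26.3, and the USF2 fold was 16.03 and 14.4. The DNAJB9 peak (chr7:108569060-108570264) also lay 64 bp from the start of THAP5, so that it stands at a promoter that both genes share. USF2 at CANX was lower in clone 5 than in clone 4, while USF2 at DNAJB9 was at similar levels in both.

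HSPA5, which encodes BiP, the major ER chaperone and the usual readout of ER stress, had the opposite balance. Its PLAG1-S fold was 4.46 in clone 4 and 4.79 in clone 5, in the lower part of the lists, at ranks 26052 and 16658. Its USF2 fold was 8.61 and 8.88, at ranks 894 and 486. USF2 exceeded PLAG1-S by 1.93 and 1.86 times at this peak (chr9:125240960-125241568), at percentiles 99.0 and 99.5 of the ratio over all co-bound peaks. A further weak PLAG1-S peak of 3.61 in clone 4 lay next to it. The summits lay 118 to 210 bp after the HSPA5 start, beyond the promoter sequence searched for the E-box.

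Calreticulin (CALR), the soluble counterpart of calnexin, and MANF, a secreted ER stress-induced factor, were co-bound through peaks away from their own starts. The co-bound CALR peak had a PLAG1-S fold of 27.1 and 20.4 and a USF2 fold of 10.2 and 5.07. It lay 7201 bp from the CALR start. At the CALR start itself PLAG1-S had a fold of 14.9 and 10.0, 271 and 289 bp upstream, and the USF2 peaks of 3.41 in clone 4 and 4.57 in clone 5 did not overlap each other. The co-bound MANF peak (chr3:51390980-51391909) had a PLAG1-S fold of 22.9 and 17.2 and a USF2 fold of 9.21 and 5.68, 5897 bp from the MANF start and 97 bp from the start of RBM15B. The MANF start carried PLAG1-S alone, at 12.9 and 9.17. CALR and MANF were therefore not co-bound within 1 kb of their own starts.

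SDF2L1, a component of ER chaperone complexes, was co-bound only by weak peaks on a high local background. Its PLAG1-S fold was 4.96 and 5.39 and the USF2 fold 2.33 and 2.13 (PLAG1-S peak chr22:21642127-21643396). The local background there reached 22.0 and 18.3 fragments for PLAG1-S and 19.5 and 15.9 for USF2, the highest at the 40 genes, against list medians of 3.67, 3.41, 3.76 and 3.78. The summits of the factors were 540 and 401 bp apart. The part of the background in this call was not tested.

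Of the remaining 9 chaperones and folding enzymes, 8 carried PLAG1-S in both clones without reproducible USF2. The ER HSP90 paralog HSP90B1 (GRP94), at 11.96 in clone 4 and 8.59 in clone 5, and the disulfide isomerase PDIA4, at 10.0 and 9.69, were the strongest of them, HSP90B1 leading in clone 4 and PDIA4 in clone 5. The others were the isomerases PDIA3, PDIA6 and P4HB, the ER HSP70 relative HYOU1, the HSP40-type co-chaperone DNAJC3 and CRELD2, with a clone 4 fold from 4.91 to 8.06 and a clone 5 fold from 3.41 to 6.91. DNAJB11, another BiP co-chaperone, had no peak in any list.

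The sensors of the unfolded protein response and the factors they release carried no USF2 peak in either clone, and at 6 of the 7 the PLAG1-S peaks were below the median strongest fold of all genes with a peak, or absent. Reproducible PLAG1-S peaks were present at 3 of 7, namely ERN1, which encodes IRE1, ATF6B, a relative of ATF6, and XBP1, the factor whose mRNA IRE1 splices. At ATF6B the fold was 7.84 in clone 4 and 6.17 in clone 5, 120 and 93 bp upstream of the start and about the E-box shown above. The ATF6B promoter thus held an E-box, a PLAG1-S peak in both clones and no USF2 peak. At ERN1 the reproducible peak had a fold of 4.41 and 3.78. At XBP1 it had a fold of 4.13 and 3.81 and lay 1203 and 1268 bp upstream of the start, and stronger peaks of 6.45 in clone 4 and 5.59 in clone 5 did not overlap the other clone.

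EIF2AK3, which encodes PERK, had no peak in any list. ATF6 had PLAG1-S peaks in clone 4 alone, of 5.12 inside the gene and 3.93 at 6 bp from the start, and CREB3, a membrane-bound factor of the ATF6 type, had 1 of 4.48 in clone 4 alone. At CREB3L2, a factor of the same kind, PLAG1-S peaks reached 5.05 in clone 4 and 3.61 in clone 5 but lay at different places in a gene of 127108 bp. The median strongest PLAG1-S fold of the sensors and factors was 5.08 and 4.68 among the 6 and 4 genes with a peak, while their median gene length was 71405 bp, the longest of the roles.

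ATF4, the factor translated when PERK or a related kinase phosphorylates eIF2, was strongly co-bound, and TRIB3 was the only co-bound gene among the 6 targets. The count for ATF4 and its targets, 2 of 7, was 5 of 7 in clone 4 alone, with ATF3, CHAC1 and SESN2 added, and 3 of 7 in clone 5 alone. The ATF4 peak (chr22:39519699-39520969) had a PLAG1-S fold of 30.03 in clone 4 and 24.7 in clone 5 and a USF2 fold of 12.9 and 6.65, with all summits 86 to 102 bp upstream of the start and the E-box at −82 to −77. All 4 values were above the medians over the co-bound peaks of the genome, which were 18.9 and 14.4 for PLAG1-S in clones 4 and 5 and 7.49 and 5.72 for USF2. At TRIB3, a pseudokinase that restrains ATF4 signaling, the PLAG1-S fold was 4.71 and 5.00 and the USF2 fold 3.95 and 4.60, with the summits of the factors 544 bp apart in clone 4 and 15 bp apart in clone 5. The TRIB3 peaks (PLAG1-S, chr20:380718-381439) rested on 29 and 17 fragments for PLAG1-S and on 14 and 16 for USF2.

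DDIT3, which encodes the proapoptotic factor CHOP, carried PLAG1-S only. Its strongest peaks were 15.3 and 11.9 and lay 401 and 271 bp from the start of MBD6, and peaks of 9.89 and 7.66 lay 213 and 219 bp upstream of a DDIT3 start. CHAC1, a glutathione-degrading enzyme, carried both factors in both clones but apart. Its PLAG1-S peak had a fold of 7.86 and 6.66, 274 and 278 bp upstream of the start, and its USF2 peak had a fold of 3.08 and 3.70, 302 and 250 bp downstream. A clone 4 PLAG1-S peak of 4.67 overlapped the USF2 peak but was absent from the clone 5 list.

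ATF3, a stress-induced factor, had reproducible USF2 peaks of 3.89 and 3.57 in clone 4 and 3.75 and 3.78 in clone 5, inside the gene body and 5476 to 5980 bp upstream of the nearest ATF3 start given. PLAG1-S peaks of 3.62 in clone 4 and 3.90 in clone 5 lay in the same stretch but did not overlap each other. At ASNS, the asparagine synthetase gene, PLAG1-S reached 3.76 and 4.28 and a USF2 peak of 4.47 was in clone 4 alone. At SESN2, which encodes the stress protein sestrin 2, PLAG1-S reached 3.90 and 4.70 and a USF2 peak of 5.19 was in clone 4 alone. In each of the 4 libraries the 6 targets all lay below the fold found at ATF4 itself.

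Among the ERAD genes, 6 of 7 carried PLAG1-S in both clones and HERPUD1 alone was co-bound. HERPUD1 (HERP) is a membrane protein that assembles the degradation complex and is induced by ER stress. Its upstream PLAG1-S peak (chr16:56931617-56932676) had a fold of 13.6 in clone 4 and 10.0 in clone 5, and a peak downstream of the start (chr16:56932806-56933296) had 19.1 and 9.43. In clone 4 a USF2 peak of 8.40 spanned 1372 bp across both. In clone 5 the same stretch held USF2 peaks of 3.84, 6.83 and 5.76. The clone 4 USF2 summit and the strongest clone 5 USF2 summit lay 173 and 183 bp after the start, 314 and 326 bp from the upstream PLAG1-S summits. The HERPUD1 E-box at −159 to −154 thus lay near the PLAG1-S summits at −141 and −143 and near the weakest clone 5 USF2 summit at −153.

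The rest of the ERAD genes showed PLAG1-S without reproducible USF2. DERL3, a derlin that forms part of the retrotranslocation channel, had PLAG1-S at 14.5 and 10.6 and a USF2 peak of 5.79 in clone 4 alone, whose summit fell inside the PLAG1-S peak. Its relative DERL1 had PLAG1-S at 11.9 and 7.68, and EDEM1, which marks misfolded glycoproteins for disposal, had 10.5 and 12.4. DERL2 and the ubiquitin ligase gene SYVN1 (HRD1) were low, at 4.74 and 4.72 and at 5.13 and 4.44. SEL1L, the partner of HRD1, had a PLAG1-S peak of 4.72 in clone 5 alone.

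The genes of tail-anchor insertion held the strongest peak of the 40 genes and also a gene that was nearly empty. GET4, which with BAG6 receives tail-anchored proteins after their synthesis, had a PLAG1-S fold of 60.3 in clone 4 and 58.6 in clone 5 and a USF2 fold of 56.2 and 52.2. The peak (chr7:875892-877105) held rank 5 and rank 2 of the PLAG1-S lists and rank 2 of both USF2 lists, with 265, 237, 252 and 227 fragments over the summits. Its summits lay 59 to 241 bp from the nearer end of the gene body. All 4 libraries thus placed GET4 among the strongest peaks of the genome.

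GET3, the ATPase that carries tail-anchored proteins to the membrane, was co-bound at its start (chr19:12737210-12737802). Its PLAG1-S fold was 28.4 in clone 4 and 17.6 in clone 5, and its USF2 fold was 13.4 and 11.04, with all summits within 6 bp of the start and next to the E-box at −10 to −5. GET1, part of the receptor in the ER membrane, had PLAG1-S alone at 13.6 and 12.1, 1106 and 1104 bp after a start. BAG6, a chaperone of the same route, had weak peaks that differed in place between the clones, with PLAG1-S at up to 3.72 and 4.39 and USF2 at 2.96 and 3.87. In clone 4 the BAG6 peaks lay 85 to 322 bp after a start, and in clone 5 they lay 8242 to 9372 bp from it.

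Of the peaks at the 40 genes, 40 and 38 PLAG1-S peaks (48.8% and 55.9%) and 18 and 12 USF2 peaks (56.3% and 57.1%) had their summit within 500 bp of a start, or of either end of the gene body for the 4 genes without a start. Over all protein-coding genes and the peaks assigned to them the shares were 32.6%, 35.9%, 35.5% and 41.3%, for genes that were longer at the median. Other genes lay close by in some cases. In the lists in the same order, 18, 13, 6 and 3 peaks lay nearer to another protein-coding gene, and the strongest peak did so at 6 and 5 genes for PLAG1-S and at 2 and 3 genes for USF2, among them MANF in all 4 lists and CRELD2, DDIT3 and DERL2 in both PLAG1-S lists. At CRELD2 and DERL2 the other gene was ALG12 and MIS12, whose starts lie 258 and 240 bp from the clone 4 summits.

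**Figure D3:**
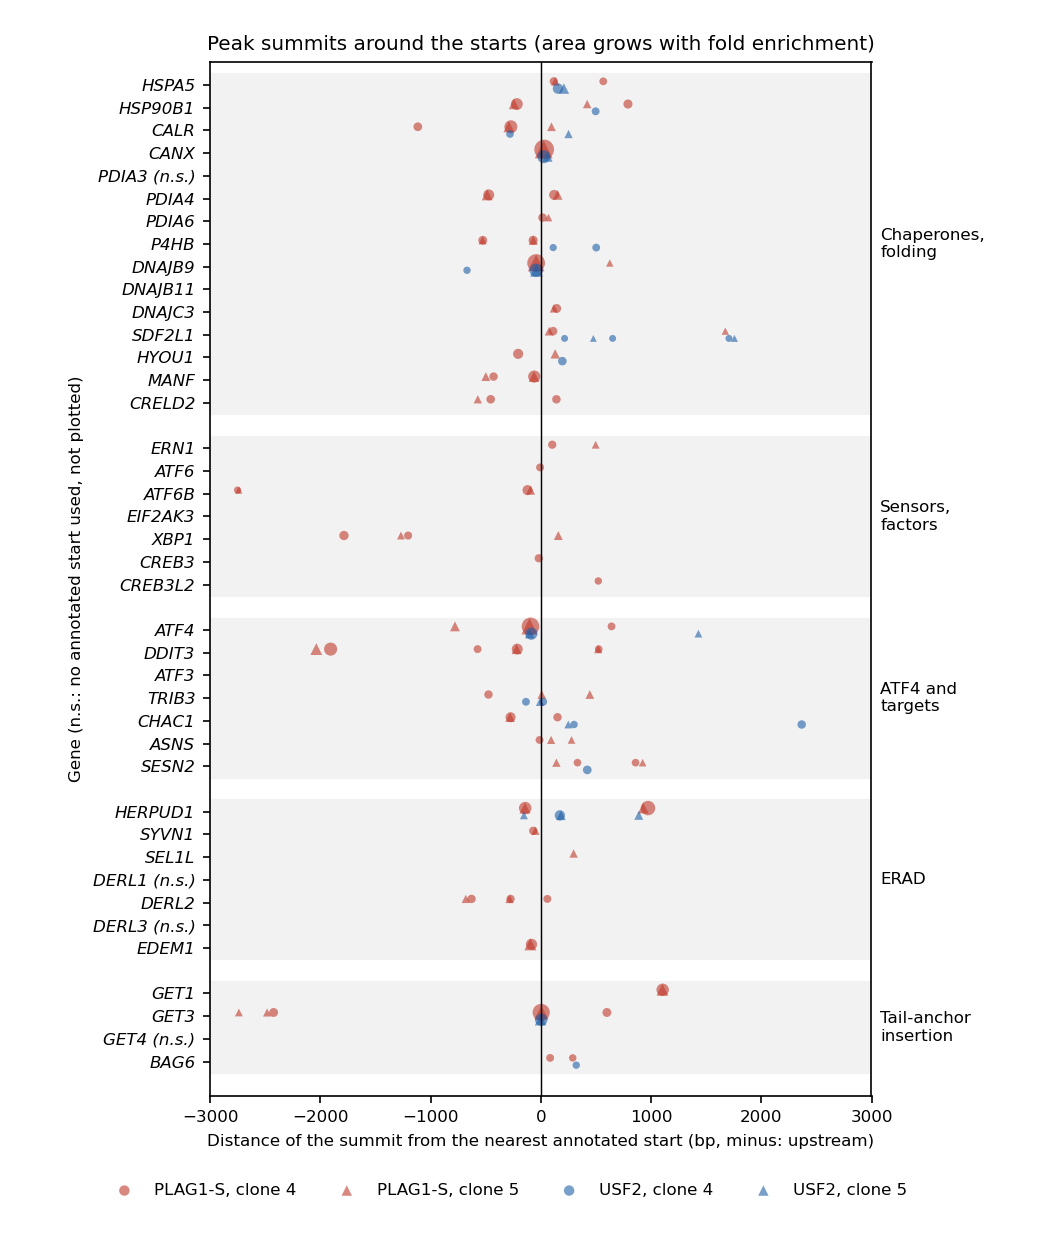
Distance of each summit from the nearest annotated start of its gene in bp (negative: upstream) within 3 kb, with PLAG1-S in red, USF2 in blue, clone 4 as circles, clone 5 as triangles and larger symbols for a larger fold; genes marked n.s. had no start to plot against. At CANX, DNAJB9, ATF4 and GET3 the strong PLAG1-S and USF2 summits fall together within about 100 bp of the start, and at HERPUD1 and CHAC1 they are spread over both sides of it.

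The calls differed between the clones at 12 of the 40 genes, or 30%, against 30.8% of all protein-coding genes, counting genes with a peak of a factor but no reproducible one. For PLAG1-S, CREB3L2, ATF3 and BAG6 had peaks in both clones that did not overlap, ATF6 and CREB3 had peaks in clone 4 alone and SEL1L in clone 5 alone. For USF2, BAG6 and P4HB had peaks that did not overlap, of 3.73 in clone 4 and 3.65 in clone 5 at P4HB. HSP90B1, HYOU1, ASNS, SESN2 and DERL3 had USF2 in clone 4 alone, at 3.79, 4.98, 4.47, 5.19 and 5.79, and no gene had it in clone 5 alone. The clone 4 USF2 list was the longer of the 2, and all of these peaks lay below a fold of 6.

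At peaks found in both clones the median fold ratio lay below 1, at these genes as elsewhere. The clone 5 to clone 4 ratio of the PLAG1-S fold had a median of 0.885 over 54 peaks at the 40 genes and of 0.887 over all 21469. The fold was higher in clone 4 at 37 of the 54 peaks. For USF2 the medians were 0.915 over 15 peaks and 0.824 over all 2409. The largest ratio at the 40 genes, 3.10, came from a small clone 4 peak at GET3 that overlapped the wide main peak of clone 5. The clone and the library cannot be told apart as the source of the lower fold, because each clone gave 1 library of each factor.

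At co-bound peaks the 2 factors were compared within each clone. Over all 2108 co-bound peaks of the genome the median ratio of the USF2 fold to the PLAG1-S fold was 0.453 in clone 4 and 0.445 in clone 5. At the 13 co-bound peaks of the 40 genes it was 0.474 and 0.611. HSPA5 was the only gene of the 11 at which USF2 exceeded PLAG1-S, as it did at 104 (4.93%) and 87 (4.13%) of all co-bound peaks. The next highest ratios were at GET4, 0.932 and 0.890, and at TRIB3, 0.837 and 0.920, and the lowest in clone 5 was at CALR, 0.248. At CANX, CALR and ATF4 the ratio fell from 0.400, 0.376 and 0.430 in clone 4 to 0.258, 0.248 and 0.269 in clone 5.

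**Figure D4:**
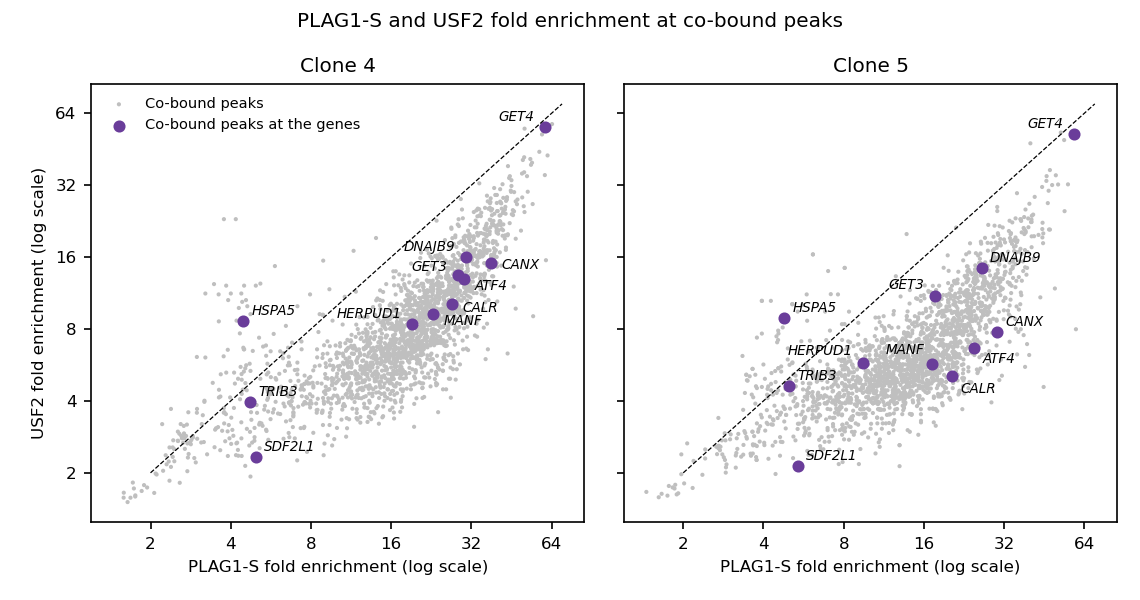
USF2 fold against PLAG1-S fold (both axes logarithmic) at all 2108 co-bound peaks (gray) and at the strongest co-bound peak of each of the 11 genes (purple), in clone 4 and clone 5, with the line of equal folds dashed. HSPA5 lies above the line in both clones, GET4 lies at the upper end close to it, and SDF2L1 and TRIB3 lie among the weakest peaks.

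The E-box separated the promoters of the genome by USF2 and also by PLAG1-S. CACGTG occurred in 8.34% of 22198 promoter windows of 300 bases, in 86.1% of the 786 windows that held a reproducible USF2 summit, in 85.1% of the 804 with a co-bound PLAG1-S summit and in 18.9% of the 2623 with a PLAG1-S summit that was not co-bound. Of the windows with the motif 36.6% held a reproducible USF2 summit, and of those without it 0.536%. Among the genes described here, 7 of 36 (19.4%) had the E-box in a promoter window, against 10.9% of 15842 protein-coding genes. All 7 carried PLAG1-S in both clones and 5 of them, CANX, DNAJB9, ATF4, HERPUD1 and GET3, were co-bound. Of the 29 genes without it in the window, 21 carried PLAG1-S and 5 were co-bound, namely HSPA5, CALR, SDF2L1, MANF and TRIB3. Of these 5, CALR and MANF were co-bound away from their starts. The gene counts are of peaks in the gene body or 3 kb, while the genome shares above are of summits inside a window.

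The G-rich bipartite PLAG1 site, searched as GGGGC or GAGGC followed after 6 to 8 bases by AGG or GGG on either strand, was common and separated little. It occurred in a window of 24 of 36 genes (66.7%), against 56.9% of 15842 protein-coding genes. In all windows it occurred in 67.6% of those with a reproducible PLAG1-S summit and in 50.0% of all. Of the 24 genes, 19 carried PLAG1-S in both clones. DNAJB9, with the third strongest PLAG1-S peak of the 40 genes, did not hold it in its window. A match to these letters is a description of the window and not of a binding site.

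The ER stress response element, read by ATF6 together with NF-Y, was searched as CCAAT followed after 9 bases by CCACG on either strand. It occurred in 7 of 36 genes, against 21 of 15842 protein-coding genes (0.133%), and since the element was defined on genes of this kind its presence is no finding. All 7 genes carried PLAG1-S in both clones and 3 were co-bound, HSPA5, CANX and CALR, while HSP90B1, PDIA6, CRELD2 and XBP1 were not. The elements are shown so that the spacer and the flanks can be compared between the co-bound genes and the others, with the CCAAT and CCACG parts, or their reverse complements, in capitals.
HSPA5, chr9:125241386-125241414, minus strand: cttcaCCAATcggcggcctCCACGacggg
CANX, chr5:179698773-179698801, plus strand: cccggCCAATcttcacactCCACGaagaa
CALR, chr19:12938379-12938407, plus strand: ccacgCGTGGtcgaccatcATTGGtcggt
HSP90B1, chr12:103930211-103930239, plus strand: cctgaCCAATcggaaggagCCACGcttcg
PDIA6, chr2:10812848-10812876, minus strand: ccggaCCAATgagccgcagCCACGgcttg
CRELD2, chr22:49918549-49918577, plus strand: cctctCGTGGcgaactcggATTGGgccat
XBP1, chr22:28800598-28800626, minus strand: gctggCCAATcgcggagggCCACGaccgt

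The 7 elements share their CCAAT and CCACG parts because the search required them, and they differ in the spacer, which was left free. HSP90B1 held a further element nearer to its start. Of the other motifs searched, TGACGTGG, read by XBP1 and ATF6, occurred at HYOU1 alone, against 1.05% of protein-coding genes. TGCATCA, the core of the composite site of ATF4 and C/EBP, occurred at CHAC1 and HERPUD1, against 2.85%. Both genes carried USF2 in both clones. Over the genome, however, TGCATCA was in 1.40% of windows with a reproducible USF2 summit and in 2.15% of all windows. At HERPUD1 it lay at −175 to −169, on the upstream side of the E-box.

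Further genes of the same pathways were counted with the same definitions. Of 47 such genes 29 (61.7%) had a reproducible PLAG1-S peak and 7 (14.9%) had USF2 and were co-bound, closer to the shares of all protein-coding genes than the 40 genes were. By role, the co-bound genes were 1 of 3 of tail-anchor insertion, 1 of 12 of ERAD, 1 of 12 chaperones and folding enzymes, 1 of 5 targets of ATF4 and 3 of 15 stress kinases, phosphatases, proteases and factors. The tail-anchor gene was SGTA, which hands substrates to GET4 and BAG6, with a PLAG1-S fold of 33.3 and 25.4 and a USF2 fold of 14.8 and 12.7. ERP29, an ER folding factor, had a PLAG1-S fold of 45.8 and 33.9 and a USF2 fold of 24.0 and 20.2. PPP1R15A (GADD34), which reverses the phosphorylation of eIF2, had PLAG1-S at 20.6 and 12.4 and USF2 at 4.62 and 4.32. Unlike SGTA and ERP29, PPP1R15A had no reproducible USF2 peak within 1 kb of a start. CREB3L4 was co-bound, with PLAG1-S at 24.1 and 22.4 and USF2 at 9.47 and 7.58, unlike its relatives CREB3 and CREB3L2 above.

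With peaks limited to a −log10 q of at least 10, the co-bound genes were HSPA5, CALR, CANX, DNAJB9, ATF4, HERPUD1, GET3 and GET4. MANF, SDF2L1 and TRIB3 dropped out under that limit. GET4, GET3, CANX, DNAJB9, ATF4, CALR and HSPA5 were co-bound under each of the definitions of a peak, of reproducibility and of co-binding that were tried with the gene window unchanged, and CALR dropped out when the window was narrowed.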

How the data were processed

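The peak lists came from K562 clones 4 and 5, with PLAG1-S and USF2 libraries of each. The authors called peaks in each library with MACS2 against the merged inputs on hg38. The submitters' processing notes name HISAT2 2.0.4, MACS2, SAMtools, bedtools, cutadapt, FastQC and HOMER, with no order or role. The deposited fold is a ratio of fragments at the summit to the local background, with the same constant added to each. The deposited −log10 p and −log10 q are those of the authors' peak caller, and the p-value and q-value belong to the summit. The authors' score column, deposited beside these, holds the −log10 q multiplied by 10 without its decimals. The lists give no read totals, so that depth is seen only through the fragments over a summit and the local background, which were recovered from fold and −log10 p at 100% of peaks (recomputed −log10 p within 0.001). The lowest local background of a list was 2.80, 2.60, 2.80 and 2.69 fragments.

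The 40 genes, their roles, the 47 further genes and the motifs were all chosen with earlier results of these data known. All 40 genes are accounted for, and given in full are co-bound genes, the strongest peaks, and genes whose calls differed between clones. Gene bodies, starts and promoter sequence came from RefSeq (GRCh38.p14). Promoters matched 36 genes. No genome sequence was used, so that sequence under peaks outside the promoter windows was not searched. Overlap and recovery were tested on simulated data (100% returned right). Python 3.11.15, numpy 2.4.6, pandas 2.3.3, scipy 1.17.1 and matplotlib 3.10.9 were used. No test was run over samples. The labels tie the same number to the same cell clone, which pairs the PLAG1-S and USF2 libraries, and co-binding within each clone was computed as a block.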

Additional observations from a re-analysis of the deposited data

How the results depend on the processing

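The counts were recomputed under 11 alternatives. Of 86 values 69 moved by at most 1.5 times (or, for medians, by less than the SD between clones) and 17 moved by more. The PLAG1-S count of 32 genes ranged from 22 (−log10 q of at least 10) to 38 (union of the clones). With a −log10 q of at least 10, the USF2 count fell to 8 genes and ATF4 and its targets to 1 co-bound gene. The union of the clones gave 20 genes with USF2 and 19 co-bound, with 5 of ATF4 and its targets and 2 of ERAD. Leaving out clone 4 or clone 5, the USF2 count was 15 to 20, the co-bound count 13 to 19, ATF4 and its targets 3 to 5 and ERAD 1 to 2 genes. The upper values come from clone 4 alone, that is, without clone 5. A 50% reciprocal overlap and summits within 100 bp each left 1 co-bound gene of ATF4 and its targets and 0 of ERAD. When co-binding was called within each clone (replicate block), the mean over the clones was 16 co-bound genes, with 4 of ATF4 and its targets. The sensors and their factors had 0 co-bound genes under every alternative. That count could not change, because neither USF2 list held a peak at them. The median USF2 fold moved to 5.19 and 6.83 within 1 kb of the start.

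Peaks near the lower end of the lists rest on few fragments, and the thresholds of the lists differ between the factors. A gene without a peak was below the threshold at this depth, which does not show that the factor was absent. The inputs are shared and each library is the only 1 of its clone and factor.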
